A study of Mus musculus with 9 samples.

Results

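The genes described here are the mouse genes of the RANKL and osteoprotegerin system with its hormonal inputs. They are Tnfsf11 (RANKL), Tnfrsf11b (osteoprotegerin), Tnfrsf11a (RANK, the receptor of RANKL), Pth1r (the receptor shared by parathyroid hormone and PTHrP), Vdr (the vitamin D receptor) and Pthlh (PTHrP). They were taken by symbol from the count files, and all 6 were found among 40213 symbols. Of these, 14413 genes had enough counts to be tested, including 5 of the 6, and Pthlh was left untested.

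RANKL on osteoblast-lineage cells binds RANK on osteoclast precursors and drives them to become osteoclasts. Osteoprotegerin is a secreted decoy receptor that binds RANKL and keeps it from RANK, so the balance of the pair sets how strongly bone-forming cells favor resorption. Parathyroid hormone, acting through PTH1R and cAMP, and active vitamin D, acting through the nuclear receptor VDR, are classical inducers of osteoblast RANKL.

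RNA was sequenced from primary calvarial pre-osteoblasts of wild-type mice, taken by the study from 3-day-old ICR pups. The cells were infected on day 3 with a control adenovirus (Ad-C, titled ad-Control) or with adenovirus overexpressing Hif1a (Ad-Hif1a) or Hif2a (Ad-Hif2a, gene symbol Epas1). Every group, the control included, was grown in osteogenic medium containing L-AA (50 μg/ml) together with β-Gp (5 mM) until day 6, and each has 3 libraries, named below by group and replicate number. The model is a viral overexpression in primary cells, not a knockout or hypoxia. The dose of virus for the sequenced cultures was not given, and the labels do not say whether the replicates came from separate litters. The study states that its n counts independent experiments or mice.

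Library totals ran from 14372589 to 18623403 counts. Values are given as CPM, counts scaled to a common library size, after TMM scaling for library composition. The vectors showed in the data: Hif1a was 190 ± 3.45 CPM with Ad-C and 1831 ± 549 with Ad-Hif1a, and Epas1 was 45.9 ± 3.59 with Ad-C and 1666 ± 736 with Ad-Hif2a (mean ± SD, n = 3). Each vector also came with more mRNA of the other factor, with Epas1 at 524 ± 140 CPM under Ad-Hif1a and Hif1a at 536 ± 76.5 under Ad-Hif2a. For the gene that a vector carries, counts of the insert and of the cell's own gene cannot be told apart. Osteoblast markers were abundant, with 9 genes summing to 57858 to 63303 CPM with Ad-C, 50665 to 54000 under Ad-Hif1a and 45163 to 52264 under Ad-Hif2a, a sum carried by Col1a1 and Col1a2. Of the 9, 3 fell with Ad-Hif1a (Sp7, Alpl and Bglap) and 4 with Ad-Hif2a (these and Runx2), with median log2 fold changes of -0.88 and -1.08. None of these falls was called in the fits without Ad-C 1 or without Ad-C 3, nor for Ad-Hif1a without Ad-Hif1a 2, and up to 6 and 5 were called without other libraries. Among all genes tested, 5.22% were called fallen with Ad-Hif1a and 7.72% with Ad-Hif2a. The osteocyte markers Sost and Fgf23 were at 0 throughout. Ad-Hif1a 1 and Ad-Hif2a 3 stood apart from the other 4 libraries with a HIF vector. Their 13 mitochondrial genes took 2.84% and 2.71% of counts, against 3.56% to 5.58% in those 4 and 5.73% to 6.17% with Ad-C. They also had the least mRNA of the overexpressed factor in their groups. Hif1a was 1240 CPM in Ad-Hif1a 1, against 1930 and 2325 in Ad-Hif1a 2 and 3. Epas1 was 823 CPM in Ad-Hif2a 3, against 1996 and 2181 in Ad-Hif2a 1 and 2.

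Promoter sequences are shown first for the genes whose mRNA changed, Tnfsf11, Vdr and Tnfrsf11a, because HIF factors bind DNA at short sites with the core ACGTG or GCGTG. RefSeq promoter windows of the build GRCm38.p6, 250 bases before to 50 bases after a start, were at hand for 5 of the 6 genes, in 7 windows. Both cores were searched on both strands, with no overlap between matches, and capitals mark a match or its reverse complement (CACGT or CACGC). The Tnfsf11 match lay just after the start, at bases 12 to 16, so it is shown in a short piece of its own beside the bases before the start.
Tnfsf11, chr14:78308044-78308293, minus strand: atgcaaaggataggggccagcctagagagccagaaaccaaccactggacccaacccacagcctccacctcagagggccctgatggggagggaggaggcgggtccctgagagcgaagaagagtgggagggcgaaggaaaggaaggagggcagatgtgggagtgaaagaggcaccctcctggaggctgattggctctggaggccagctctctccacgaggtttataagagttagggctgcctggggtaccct
Tnfsf11, chr14:78308016-78308044, minus strand: tgccatctctccCACGTcccggggagcca
Vdr, chr15:97908297-97908546, minus strand: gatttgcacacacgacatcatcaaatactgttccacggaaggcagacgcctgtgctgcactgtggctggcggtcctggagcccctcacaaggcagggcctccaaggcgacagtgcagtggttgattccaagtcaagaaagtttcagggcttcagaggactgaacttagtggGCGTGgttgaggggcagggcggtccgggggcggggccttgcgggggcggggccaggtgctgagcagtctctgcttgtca
Tnfrsf11a, chr1:105780473-105780722, plus strand: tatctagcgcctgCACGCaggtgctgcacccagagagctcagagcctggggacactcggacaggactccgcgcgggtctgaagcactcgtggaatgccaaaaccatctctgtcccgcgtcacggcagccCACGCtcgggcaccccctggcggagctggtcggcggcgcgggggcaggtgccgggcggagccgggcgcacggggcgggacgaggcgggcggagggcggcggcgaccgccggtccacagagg

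One of the 2 cores was present in 5 of the 7 windows, at least 1 for each of the 5 genes. Across all 32851 RefSeq windows of this length, ACGTG was present in 19.6%, GCGTG in 32.4% and either in 43.8%. Vdr held GCGTG at bases -79 to -75, and Tnfrsf11a held it on the opposite strand at bases -237 to -233 and -121 to -117. The letters TGACG, the core bound by the cAMP-responsive factor CREB, were present in 20.8% of windows, in 1 of the 3 Pth1r windows and in Tnfrsf11a at bases -134 to -130, but not in those of Tnfsf11 or Vdr. Tnfsf11 and Vdr, which rose, and Tnfrsf11a, which fell, all held a HIF core, and a match of letters is a description, not a binding site.

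Across the 6 genes, Tnfsf11 and Vdr rose and Tnfrsf11a fell with both HIF vectors, while Tnfrsf11b and Pth1r varied widely within the vector groups and did not pass the test. Against Ad-C, 3 of the 5 tested genes passed an adjusted p of 0.05 in edgeR with Ad-Hif1a, where 11.3% of all genes did. With Ad-Hif2a, 3 of the 5 also passed, where 15.6% of all genes did. In these 3 genes the libraries of each vector group did not overlap with Ad-C (nor did Pth1r with Ad-Hif1a), as was so for 50.4% of all genes with Ad-Hif1a and 49.5% with Ad-Hif2a. Both comparisons use the same 3 control libraries. The plot of CPM by library shows these patterns gene by gene.

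**Figure D1:**
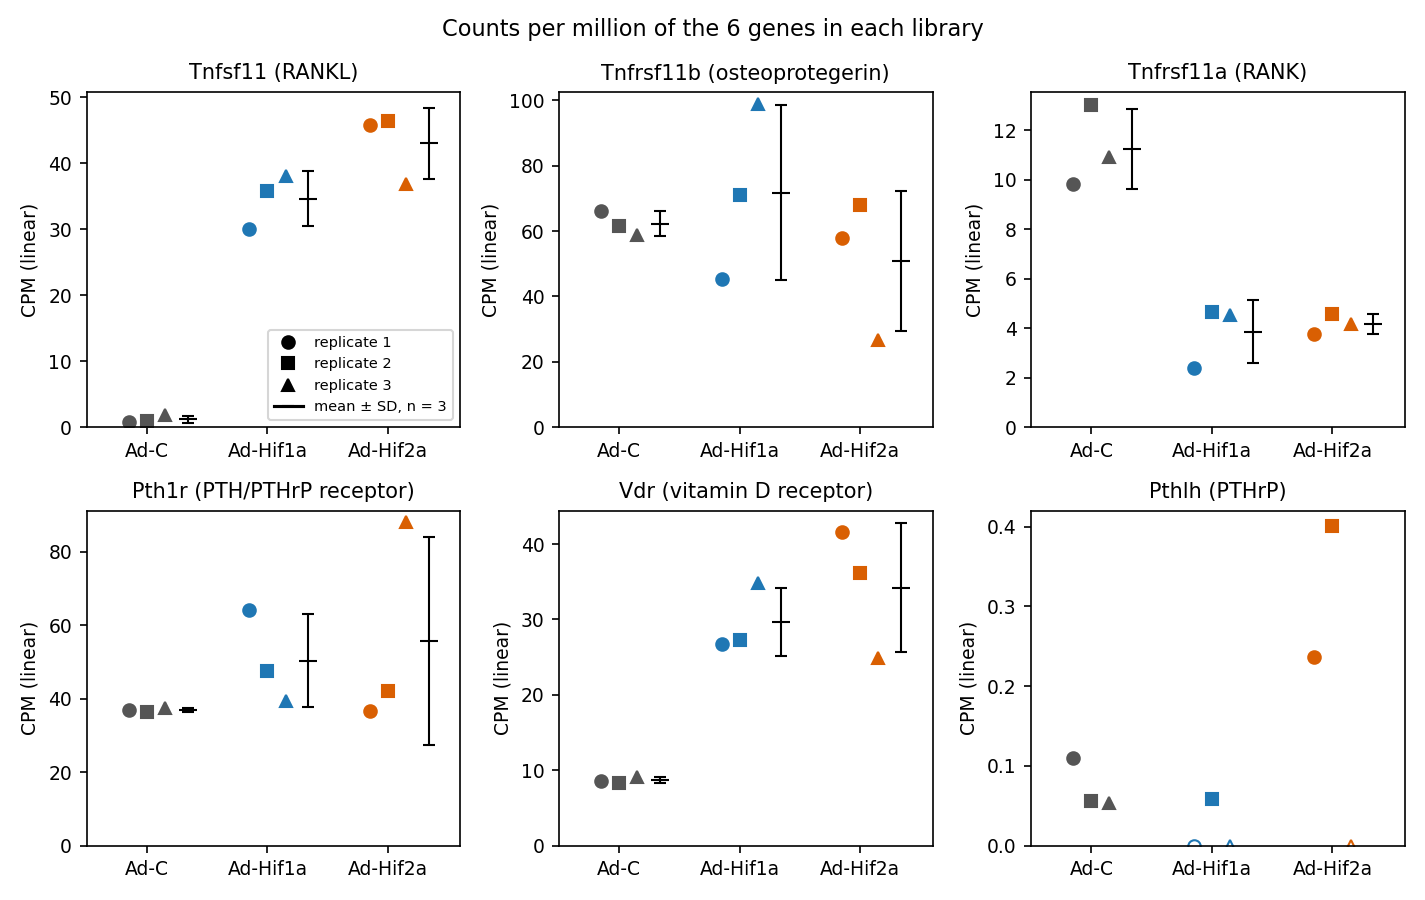
Levels of the 6 genes (CPM, linear axes that differ between panels) in 3 libraries each of Ad-C, Ad-Hif1a and Ad-Hif2a, with symbols for the replicate number, open symbols at 0, and the mean ± SD beside them. Tnfsf11 and Vdr lie above and Tnfrsf11a below the Ad-C libraries in all 6 libraries with a HIF vector, and no mean is drawn for Pthlh, whose counts were 0 to 7.

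Tnfsf11, the ligand, was barely detected in control cells. Its CPM was 0.828, 0.953 and 1.82 in Ad-C 1, 2 and 3, from 15, 17 and 34 counts. With Ad-Hif1a the CPM was 30.0, 35.8 and 38.1, and with Ad-Hif2a it was 45.8, 46.4 and 36.8. All 6 vector libraries were far above the controls, the lowest Ad-Hif1a library 16.5 times and the lowest Ad-Hif2a library 20.2 times the highest Ad-C library. The fitted log2 fold change was 4.85 with Ad-Hif1a (SE 0.31, edgeR adjusted p = 0.000287) and 5.19 with Ad-Hif2a (SE 0.31, adjusted p = 0.000177). By size the rise ranked 63rd among all genes with Ad-Hif1a and 73rd with Ad-Hif2a. Leaving out any 1 library kept the call, with log2 fold changes of 4.67 to 5.29 for Ad-Hif1a and 4.99 to 5.61 for Ad-Hif2a.

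The vectors were next to each other for Tnfsf11, and their libraries overlapped, since Ad-Hif2a 3 lay below Ad-Hif1a 3. Ad-Hif2a against Ad-Hif1a gave a log2 fold change of 0.33 (SE 0.25, 95% interval -0.25 to 0.91, edgeR adjusted p = 1.00). None of the 5 genes passed in this comparison, where 0% of all 14413 genes did by edgeR, 338 had an unadjusted p under 0.05 and DESeq2 called 19. The targets of the vectors did not pass by edgeR either, with Hif1a at -1.75 (95% interval -2.34 to -1.16) and Epas1 at 1.64 (0.71 to 2.57). The lack of calls is therefore no sign that the vectors acted alike.

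Tnfrsf11b, the decoy receptor, was already well expressed in control cells and showed no shared direction. Its CPM was 66.3, 61.6 and 58.8 with Ad-C, a tight group with a mean of 62.2 ± 3.79 (SD, n = 3). With Ad-Hif1a the values were 45.3, 71.2 and 99.0 CPM, and with Ad-Hif2a they were 57.8, 67.9 and 26.8. Both vector groups therefore straddled the controls. The log2 fold change was 0.20 with Ad-Hif1a (SE 0.39, edgeR adjusted p = 0.760) and -0.31 with Ad-Hif2a (SE 0.39, adjusted p = 0.577). The sign rested on single libraries: it was -0.36 for Ad-Hif1a without Ad-Hif1a 3 and 0.12 for Ad-Hif2a without Ad-Hif2a 3. With the 2 libraries that stood apart both left out, the values were 0.43 for Ad-Hif1a (adjusted p = 0.0509) and 0.07 for Ad-Hif2a.

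The ratio of Tnfsf11 to Tnfrsf11b counts in a library removes the library's depth and puts the ligand beside its decoy. It was 0.0125, 0.0155 and 0.0309 in Ad-C 1, 2 and 3. It was 0.663, 0.502 and 0.385 with Ad-Hif1a, and 0.792, 0.684 and 1.37 with Ad-Hif2a. Control cells thus held 32.4 to 80.1 counts of osteoprotegerin for each count of RANKL, and Ad-Hif2a 3 was the 1 library of the 9 in which RANKL counts were the more numerous.

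The mean log2 ratio was higher than with Ad-C by 4.80 with Ad-Hif1a (SE 0.45, a 27.8-fold difference) and by 5.64 with Ad-Hif2a (SE 0.50, 49.9-fold). The groups did not overlap, and the two-sided exact permutation p was 0.10 in each case, also after adjustment over the 3 comparisons, the smallest that 3 against 3 libraries allow. Ranges with any 1 library left out were 4.53 to 5.18 and 5.34 to 6.03. On the same log2 scale, the fitted changes of the ligand alone were 4.85 and 5.19, and those of Tnfrsf11b alone were 0.20 and -0.31.

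Between the vectors, the log2 ratio was higher by 0.84 with Ad-Hif2a (SE 0.38, 1.80-fold), again with an exact permutation p of 0.10. It was 0.54 without Ad-Hif2a 3, the lowest of 0.54 to 1.05 with 1 library left out, and 0.74 without both libraries that stood apart. The gap between the groups was small: the highest Ad-Hif1a library had a ratio of 0.663 (95% counting interval 0.593 to 0.741), and the lowest Ad-Hif2a library had 0.684 (0.624 to 0.748). These exact intervals cover counting error only, and they overlap. The highest ratio, in Ad-Hif2a 3, came with that library's low Tnfrsf11b of 26.8 CPM and not with a high Tnfsf11, which was the lowest of its group at 36.8 CPM.

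Longer transcripts collect more reads, so the ratio was also formed per exon base, with 2236 bases for Tnfsf11 and 2818 for Tnfrsf11b in the GENCODE annotation of GRCm38. Per base it was 0.0157 to 0.0390 in the controls, 0.485 to 0.836 under Ad-Hif1a and 0.861 to 1.73 under Ad-Hif2a. Each library's ratio is multiplied by the same factor here, so this moves the level of the ratio and not its order or folds.

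**Figure D2:**
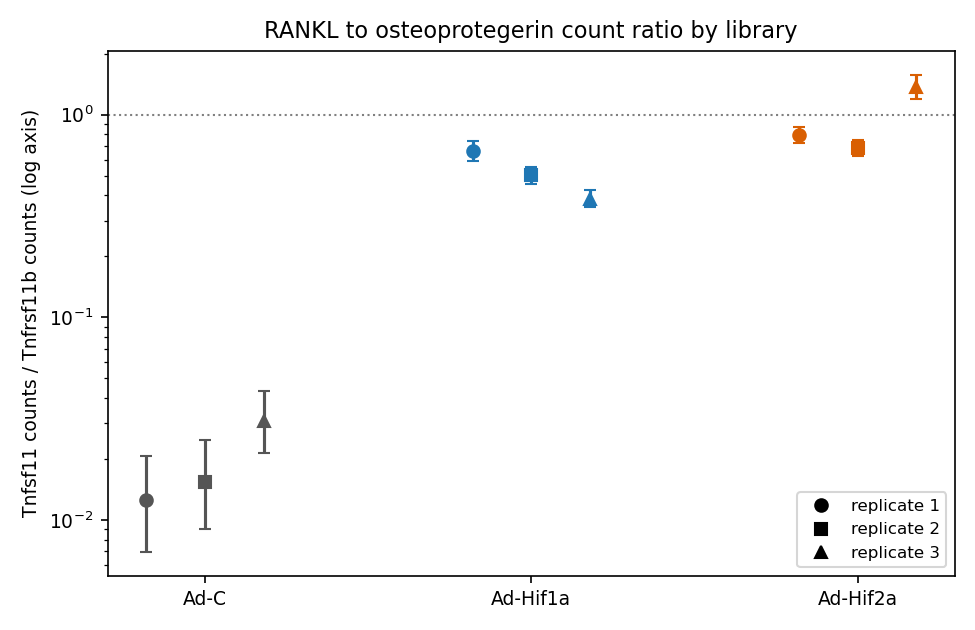
Ratio of Tnfsf11 to Tnfrsf11b counts in each library (log axis), with exact 95% intervals that cover counting error only and a dotted line at equal counts. Ad-C lies between 0.0125 and 0.0309, Ad-Hif1a between 0.385 and 0.663, and Ad-Hif2a between 0.684 and 1.37.

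Tnfrsf11a, the receptor that RANKL acts on, is known from osteoclast precursors of the macrophage lineage, and it fell in both groups. Its CPM was 9.83, 13.0 and 10.9 with Ad-C, 2.38, 4.65 and 4.54 with Ad-Hif1a, and 3.77, 4.57 and 4.15 with Ad-Hif2a. Every vector library was below every control. The log2 fold change was -1.58 with Ad-Hif1a (SE 0.22, edgeR adjusted p = 0.00543) and -1.43 with Ad-Hif2a (SE 0.22, adjusted p = 0.00608). Without Ad-C 1 the value for Ad-Hif2a was -1.33 with an adjusted p of 0.0595, short of the threshold. The fitted difference between the vectors was 0.15 on the log2 scale (SE 0.23, 95% interval -0.38 to 0.68).

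Most macrophage markers moved with it. The summed level of 7 markers was 3095 to 3317 CPM in the controls, 1297 to 1497 under Ad-Hif1a and 1302 to 1670 under Ad-Hif2a. Most of this sum was Lyz2, with means of 2431 CPM with Ad-C, 1131 with Ad-Hif1a and 1172 with Ad-Hif2a. In each comparison 5 of the 7 fell (Cd68, Csf1r, Mrc1, Lyz2 and Ptprc) and none rose, with 3 called with Ad-Hif1a when Ad-C 1 or Ad-Hif1a 2 was left out. Among all genes, 5.22% were called fallen with Ad-Hif1a and 7.72% with Ad-Hif2a. Adgre1 (-0.21 and -0.02) and Itgam (-0.51 and -0.49) did not pass. Tnfrsf11a per 1000 CPM of macrophage markers was 3.17 to 3.92 in the controls, 1.83 to 3.17 under Ad-Hif1a and 2.69 to 3.19 under Ad-Hif2a. On that scale only Ad-Hif2a 3 (3.19) was above the lowest Ad-C library (3.168), and Ad-Hif1a 3 came just below it (3.166). The other libraries with a HIF vector were below all controls. They stood at 1.83 and 3.11 in Ad-Hif1a 1 and 2, and at 2.69 and 2.74 in Ad-Hif2a 1 and 2. The scale rests mainly on Lyz2 and would differ with a marker such as Adgre1 (means of 117 CPM with Ad-C, 101 with Ad-Hif1a and 116 with Ad-Hif2a). The part of macrophages in the fall of Tnfrsf11a was not tested, and in bulk RNA fewer cells of a type and less RNA per cell cannot be told apart.

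The summed level of osteoclast markers overlapped between the groups. Over 8 genes it was 212 to 222 CPM in the controls, 204 to 222 under Ad-Hif1a and 217 to 231 under Ad-Hif2a. Of 5 tested, Itgb3 rose and Atp6v0d2 fell in each comparison. Calcr, the calcitonin receptor of mature osteoclasts, was at 0 in all Ad-C libraries, and the fusion gene Dcstamp was at 0 in all libraries with a HIF vector. Neither had enough counts to be tested, with 0 to 7 for Calcr and 0 to 8 for Dcstamp over all libraries, so these zeros show no change.

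Vdr, the receptor through which active vitamin D acts on RANKL, rose with both vectors. Its CPM was 8.56, 8.30 and 9.09 with Ad-C, 26.8, 27.2 and 34.8 with Ad-Hif1a, and 41.6, 36.1 and 24.8 with Ad-Hif2a. No vector library reached down to the controls, and the vector groups overlapped each other. The log2 fold change was 1.78 with Ad-Hif1a (SE 0.24, edgeR adjusted p = 0.00468) and 1.98 with Ad-Hif2a (SE 0.24, adjusted p = 0.00238). It stayed called in each fit with 1 library left out, at 1.54 to 1.91 and 1.78 to 2.26. Between the vectors the difference was 0.20 (SE 0.23, 95% interval -0.34 to 0.74).

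Pth1r, the receptor of parathyroid hormone and PTHrP, was even among controls at 37.0, 36.4 and 37.4 CPM and uneven among the vector libraries. It was 64.2, 47.6 and 39.3 CPM with Ad-Hif1a and 36.7, 42.2 and 88.1 CPM with Ad-Hif2a. All Ad-Hif1a libraries were above the controls, by a factor of only 1.05 at the nearest, and Ad-Hif2a overlapped them. The log2 fold change was 0.46 with Ad-Hif1a (SE 0.34, edgeR adjusted p = 0.42) and 0.54 with Ad-Hif2a (SE 0.34, adjusted p = 0.289). Without Ad-Hif2a 3, Ad-Hif1a passed at 0.43 (adjusted p = 0.0490) and Ad-Hif2a stood at 0.02.

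Pthlh, the local ligand of PTH1R, was at the limit of detection. Its counts were 2, 1 and 1 with Ad-C, 0, 1 and 0 with Ad-Hif1a, and 4, 7 and 0 with Ad-Hif2a. A floor of 3 counts is worth 0.160 to 0.218 CPM in these libraries, so only Ad-Hif2a 1 and 2 were above it and no difference was detectable at this depth. Pth, parathyroid hormone itself, had no count in any of the 9 libraries.

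**Figure D3:**
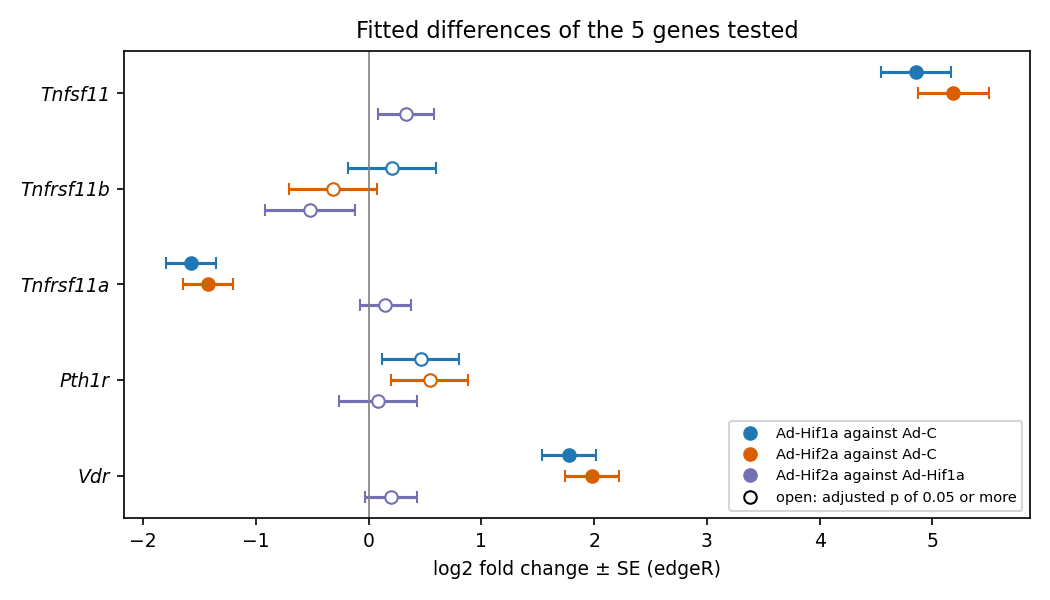
Fitted log2 fold change ± SE (edgeR, 9 libraries) of the 5 tested genes in the 3 comparisons, with filled points for an adjusted p under 0.05. Tnfsf11 lies at 4.85 and 5.19, Vdr at 1.78 and 1.98 and Tnfrsf11a at -1.58 and -1.43 against Ad-C, and every point of Ad-Hif2a against Ad-Hif1a is open.

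The libraries that stood apart were the extremes for osteoprotegerin and the PTH receptor. Ad-Hif2a 3 and Ad-Hif1a 1 had the lowest Tnfrsf11b of the 9 libraries, at 26.8 and 45.3 CPM, and the highest Pth1r, at 88.1 and 64.2 CPM. Among the 6 libraries with a HIF vector, the order of Pth1r from high to low was the exact reverse of the order by mitochondrial share. This was seen after the values were known, and the part of RNA quality or of any other property of these libraries was not tested. Tnfsf11 was also the lowest of its group in both, at 30.0 CPM in Ad-Hif1a 1 and 36.8 in Ad-Hif2a 3, yet still far above Ad-C. Vdr was the lowest of its group in both as well, at 26.8 and 24.8 CPM in the same order, and so was the mRNA of the overexpressed factor.

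**Figure D4:**
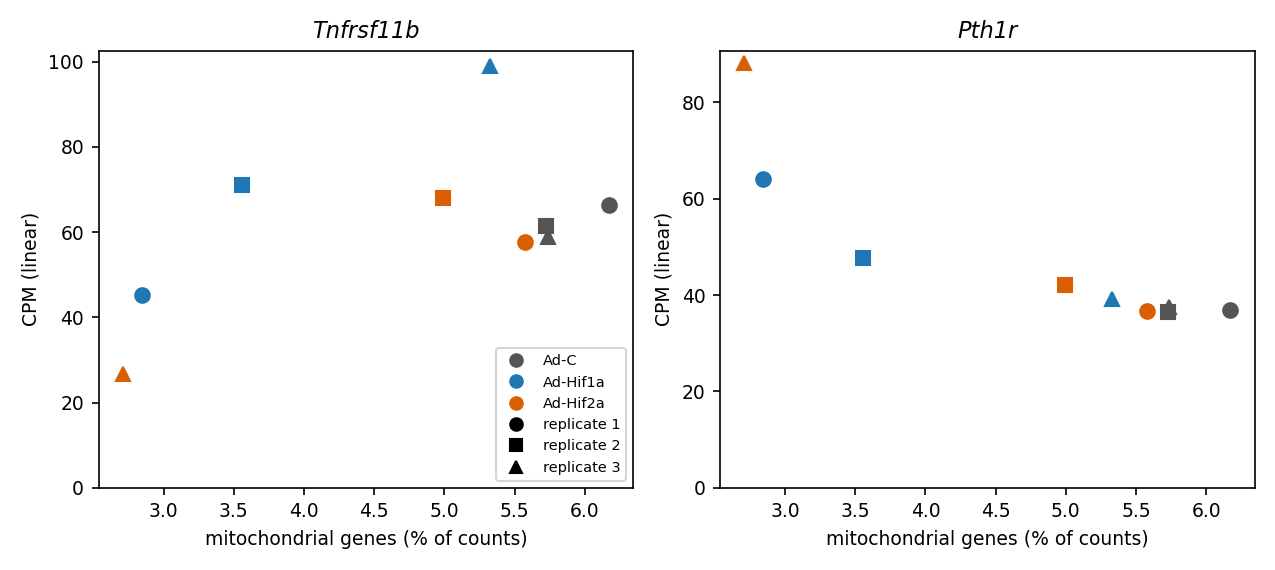
Tnfrsf11b (left) and Pth1r (right) in CPM against the share of counts in 13 mitochondrial genes (percent), 1 point per library, with color for the group and symbol for the replicate number. The 2 libraries with the lowest share, 2.71% and 2.84%, have the lowest Tnfrsf11b and the highest Pth1r.

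The members also differed in which other genes they tracked. Over the 9 libraries the genes with the most similar log2 CPM to Tnfsf11 were Gm11476, Serpina3f and C3 (Pearson r of 0.996, 0.996 and 0.995). For Vdr they were Tnfrsf21, Ch25h and Cyp1b1 (0.998, 0.994 and 0.994), and for Tnfrsf11a they were Nebl, Heca and Ms4a6b (0.990, 0.989 and 0.986). Gtf3c4, C1galt1 and Dipk2a were nearest to Tnfrsf11b (0.979, 0.976 and 0.976), and Lsm4, Septin5 and Igfbp4 to Pth1r (0.994, 0.994 and 0.992). The points share libraries and group differences, so these values only describe likeness. Within the 6 libraries with a HIF vector, r was 0.80 between Tnfsf11 and Vdr, -0.88 between Tnfrsf11b and Pth1r, and -0.87 between Pth1r and Vdr. Without Ad-Hif1a 1 and Ad-Hif2a 3, over the 4 others, these were 0.84, 0.09 and -0.94, so the relation of Tnfrsf11b with Pth1r rested on those 2 libraries.

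The wider pathway was followed in 8 gene lists, each read against the share of all genes called and a median log2 fold change of 0.01 over all genes in both comparisons. The lists were chosen with earlier results of these data known. Of 109 distinct genes tested in the lists, 20 (18.3%) were called with Ad-Hif1a, where 11.3% of all genes were, and 4 of these were called in each of the 9 fits with 1 library left out: Bmp2, Il6, Lif and Ptgs2. With Ad-Hif2a 30 (27.5%) were called, where 15.6% of all genes were, and 5 held in each such fit, the same 4 and Il1b. Il1b was below the floor in the controls, with means of 0.053 CPM with Ad-C and 2.40 with Ad-Hif2a. In all 16 counts (8 lists, both comparisons) the lowest number of calls was reached without Ad-C 1, in some also without other libraries, and in 15 the highest was reached without Ad-Hif2a 3. The calls of other listed genes below are therefore less steady than those of Tnfsf11 and Vdr.

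Cytokine and prostaglandin inputs to osteoblast RANKL held the most risers. Under Ad-Hif1a 6 of the 20 tested rose and 0 fell (3 to 13 called with 1 library left out), and 10 rose and 1 fell with Ad-Hif2a (4 to 14). These are 30% and 55% of the list, beside 11.3% and 15.6% of all genes. The medians were 0.75 and 0.86. Il6, a cytokine that induces RANKL in osteoblasts, was 0.240 ± 0.253 CPM in the controls, 34.4 ± 5.00 under Ad-Hif1a and 95.9 ± 44.5 under Ad-Hif2a (SD, n = 3), with log2 fold changes of 7.13 (edgeR adjusted p = 0.00122) and 8.57 (adjusted p = 0.000557). Il6 was near the floor in the controls, at 0 to 0.505 CPM, which limits the precision of these fold changes. With 1 library left out they ran from 6.46 to 8.35 and from 7.84 to 9.76. Its vector groups did not overlap, as was so for 6.27% of all genes, while edgeR called no gene between the vectors. Lif, a cytokine of the same receptor family, rose by 2.38 and 3.52 on the log2 scale (adjusted p = 0.00550 and 0.00104). Ptgs2 (COX-2), the inducible enzyme of prostaglandin synthesis, rose by 2.76 and 3.26 (adjusted p = 0.00291 and 0.00127). Il6ra, a receptor for IL-6, was the 1 gene that fell, by 0.95 with Ad-Hif2a (adjusted p = 0.0305; 0.166 without Ad-C 1).

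Among genes known to respond to PTH in osteoblasts, 4 of 12 were called up and 1 down under Ad-Hif1a (1 to 8 called with 1 library left out), and 5 rose and 0 fell with Ad-Hif2a (1 to 6). These are 41.7% of the list in each comparison, beside 11.3% and 15.6% of all genes. The medians were 0.12 and 0.51. Besides Ptgs2, the risers were the growth factor Areg (3.41 and 3.54), the nuclear receptor Nr4a2 (1.27 and 1.75) and the collagenase Mmp13 (0.80 and 0.92), and the cAMP-responsive repressor gene Crem with Ad-Hif2a (1.08). Areg was near the floor, with means of 0.055 CPM with Ad-C, 0.63 with Ad-Hif1a and 0.74 with Ad-Hif2a. Of the 9 fits with 1 library left out, Areg and Mmp13 were each called in 1 with Ad-Hif1a and in 4 with Ad-Hif2a. Nr4a2 was called in 3 and 7. Rgs2, a brake on G protein signaling that PTH is known to induce, fell by 1.14 with Ad-Hif1a (edgeR adjusted p = 0.0343). Fos stood at -0.91 and -0.86 and Fosb at -0.83 and -0.97, without passing.

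The signaling chain below PTH1R held 3 risers and 1 faller of 22 tested in each comparison (0 to 9 called with 1 library left out for Ad-Hif1a, 0 to 7 for Ad-Hif2a), with medians of -0.06 and -0.16. This is 18.2% of the list, beside 11.3% and 15.6% of all genes. The risers were Nherf1, a scaffold that binds PTH1R (1.30 and 1.20, edgeR adjusted p = 0.00522 and 0.00541), and Pde4b (2.76 and 3.01) and Pde4d (1.31 and 1.35), which break down cAMP. Arrb1, a β-arrestin that desensitizes such receptors, fell (-1.01 and -1.25, adjusted p = 0.0262 and 0.0101).

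No listed gene of the vitamin D machinery was called risen beside Vdr. Among all genes 6.04% were called risen with Ad-Hif1a and 7.87% with Ad-Hif2a, so the lack of risers among 14 genes is not a result about the pathway. Of 14 tested genes for vitamin D activation, breakdown and receptor partners, none was called with Ad-Hif1a by edgeR (0 to 4 with 1 library left out, and 1 by DESeq2), and 2 fell with Ad-Hif2a (0 to 3). These are 0% and 14.3% of the list, below the 11.3% and 15.6% of all genes. The fallers were the coactivator genes Ncoa3 (-1.11, adjusted p = 0.0338) and Ncoa1 (-0.67, adjusted p = 0.0440), while Ncoa2 stood at -0.95 (adjusted p = 0.0730). Rxra, the main partner of VDR, stood at 0.13 and 0.11. Cyp24a1, the enzyme that breaks down active vitamin D and the classical target of VDR, had 0 to 5 counts in every library, and Cyp27b1, which makes active vitamin D, also had 0 to 5.

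Of 11 vitamin D responsive genes, 6 could be tested and 1 fell in each comparison (0 to 5 called with 1 library left out for Ad-Hif1a, 0 to 3 for Ad-Hif2a). This is 16.7% of the list, beside 11.3% and 15.6% of all genes. The faller was Bglap, osteocalcin of the bone matrix, which fell with both (log2 fold changes -2.18 and -2.04, edgeR adjusted p = 0.0180 and 0.0182). Its near copy Bglap2 stood at -2.08 and -1.84 (adjusted p = 0.0625 and 0.0731), and how reads were shared between the copies was not given. The calcium pump gene Atp2b1 stood at -0.38 and -0.51 (adjusted p = 0.169 and 0.0628), and Spp1, osteopontin, at 0.37 and 0.61 without passing.

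Wnt, BMP, TGF-beta and estrogen inputs to osteoprotegerin had medians of -0.39 and -0.53. Under Ad-Hif1a 0 of the 10 tested rose and 1 fell (1 to 6 called with 1 library left out), and 0 rose and 3 fell with Ad-Hif2a (1 to 4). These are 10% and 30% of the list, beside 11.3% and 15.6% of all genes. Bmp2, a bone morphogenetic protein, was 22.6 to 24.6 CPM in the controls, 4.82 to 6.65 under Ad-Hif1a and 3.06 to 6.97 under Ad-Hif2a, and its log2 fold changes were -2.07 and -2.24 (edgeR adjusted p = 0.00527 and 0.00311). With Ad-Hif2a the Wnt effector Tcf7l2 (-0.80, adjusted p = 0.0219) and the Wnt receptor Fzd8 (-0.63, adjusted p = 0.0432) also fell.

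Partners and sheddases of RANKL and osteoprotegerin held 1 riser and 1 faller of 6 tested in each comparison (0 to 5 called with 1 library left out for Ad-Hif1a, 0 to 3 for Ad-Hif2a). Sdc1, a syndecan whose sugar chains bind osteoprotegerin, rose by 0.61 and 0.74 (edgeR adjusted p = 0.0317 and 0.0121). Tnfsf10 (TRAIL), another ligand of osteoprotegerin, had 25, 33 and 15 counts with Ad-C and 0, 3 and 1 with Ad-Hif1a, a fall that passed the test (adjusted p = 0.0288). With Ad-Hif2a it had 13, 3 and 5 counts (adjusted p = 0.152). Lgr4, a second receptor for RANKL, stood at -0.75 with Ad-Hif1a (adjusted p = 0.156) and fell by 1.11 with Ad-Hif2a (adjusted p = 0.0430). The called genes are 33.3% of this list in each comparison, beside 11.3% and 15.6% of all genes. The medians of this list were -0.30 and -0.38.

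RANK signaling components, which work downstream of the receptor, were near the median of all genes at 0.07 and 0.00. Of 22 tested, 2 rose with Ad-Hif1a (0 to 12 called with 1 library left out) and 3 rose with Ad-Hif2a (0 to 6), and none fell. These are 9.09% and 13.6% of the list, below the 11.3% and 15.6% of all genes. Without Ad-Hif1a 1 and Ad-Hif2a 3 both, 7 rose and 1 fell with Ad-Hif1a, and 7 rose and 0 fell with Ad-Hif2a. Relb (0.89 and 0.90) and Nfkb2 (0.63 and 0.65), the pair of the noncanonical NF-kB pathway, rose in both (edgeR adjusted p = 0.0234 and 0.0180 for Relb, 0.0331 and 0.0230 for Nfkb2). The kinase gene Src was 0.53 with Ad-Hif1a (adjusted p = 0.0507) and rose by 0.62 with Ad-Hif2a (adjusted p = 0.0248).

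**Figure D5:**
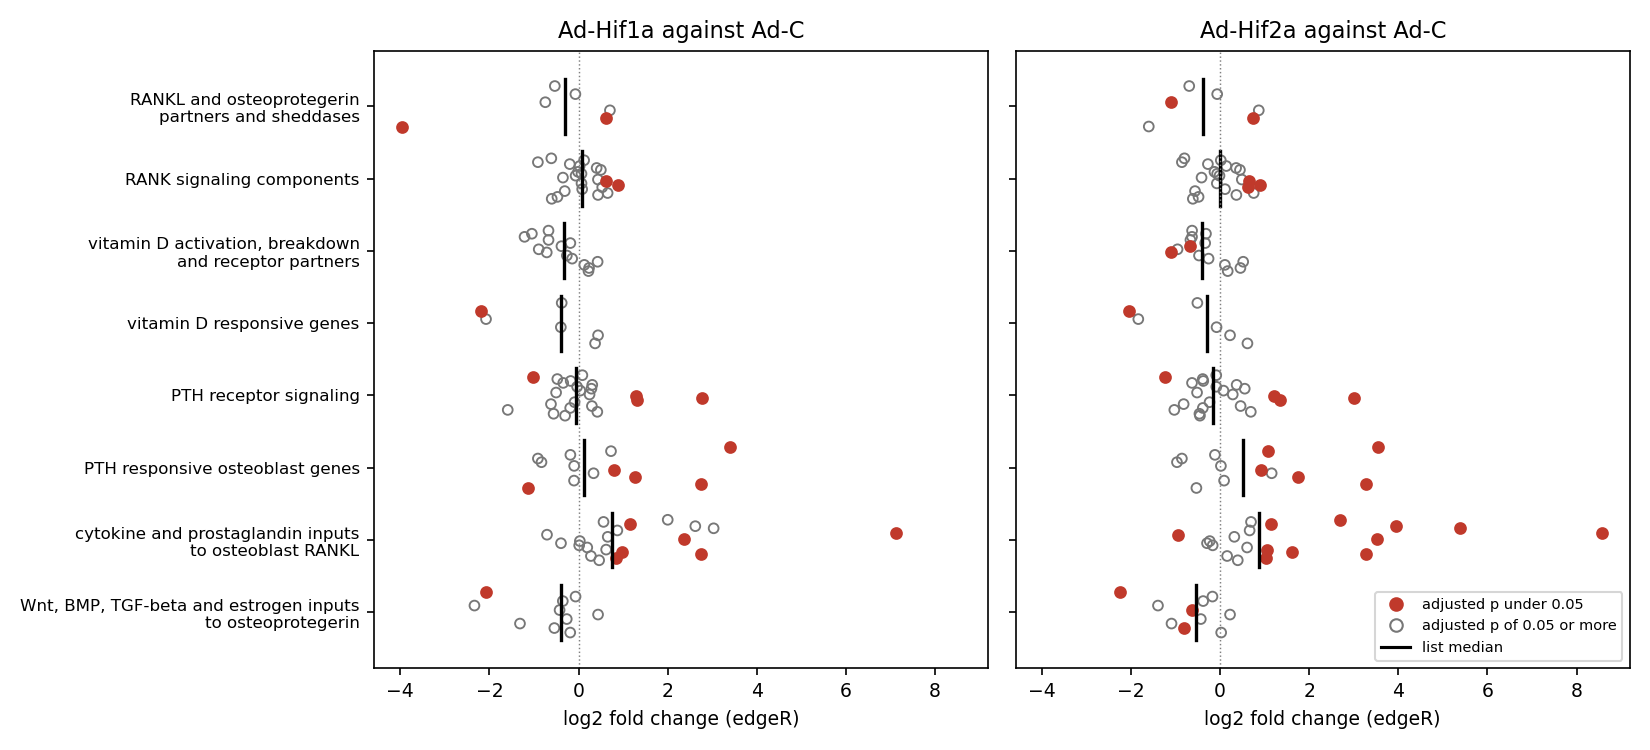
Log2 fold change (edgeR) of each tested gene of the 8 pathway lists against Ad-C, on the left for Ad-Hif1a and on the right for Ad-Hif2a, with filled points for an adjusted p under 0.05 and a bar at the list median. The cytokine and prostaglandin list has the highest medians, 0.75 and 0.86. Below 0 on both sides lie the medians of inputs to osteoprotegerin, both vitamin D lists, partners and sheddases, and PTH receptor signaling.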

How the data were processed

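Whole-number counts per gene symbol were used as deposited by the authors for 9 libraries, 3 per group. Per the labels, RNA was extracted with RNAiso Plus and libraries were made with the CORALL RNA-seq V2 kit. The submitters' processing notes name bcl2fastq 2.20.0.422, fastp, STAR, Salmon and GRCm39 without roles, and whether counting used strand is not given. Genes passing filterByExpr were scaled by TMM and fitted with the robust quasi-likelihood test of edgeR 4.0.16 in R 4.3.3 on all 9 libraries, with group and replicate number as terms. The Benjamini-Hochberg adjustment ran over 14413 genes, with a threshold of 0.05. The ratio was tested by a two-sided exact permutation test. Scripts were tested on simulated data. Members and lists were chosen with earlier results of these data known. Named genes are the members, Hif1a and Epas1, the 3 genes most like each tested member, up to 3 genes per list with the lowest adjusted p, and all called genes of a list where they are 5 or fewer. Rxra, Cyp24a1, Cyp27b1, Pth, Spp1, Il1b, Il6ra, Fos, Fosb and marker genes were named beside that rule. Alternatives were DESeq2, other normalizations and filters, no replicate term and fewer libraries. Gene positions and exon lengths are of GRCm38, an earlier build than the authors'.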

Additional observations from a re-analysis of the deposited data

How the results depend on the processing

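Tnfsf11 and Vdr kept their direction and their call against Ad-C in all 18 alternatives, and so did Tnfrsf11a with Ad-Hif1a. The counts of called members were within 1.5 times in every alternative. The exceptions among members were Tnfrsf11a with Ad-Hif2a (-1.33, adjusted p = 0.0595, without Ad-C 1) and Pth1r with Ad-Hif1a (0.43, adjusted p = 0.0490, without Ad-Hif2a 3). Signs turned for Tnfrsf11b with Ad-Hif1a (-0.36 without Ad-Hif1a 3, against up to 0.56 without Ad-Hif1a 1) and with Ad-Hif2a (0.12 without Ad-Hif2a 3, against -0.59 without Ad-Hif2a 1, and 0.066 without both Ad-Hif1a 1 and Ad-Hif2a 3, a pair chosen after seeing the data). Between the vectors they turned for Tnfrsf11a (-0.064 without Ad-Hif1a 1, against up to 0.30 without Ad-Hif1a 3, and -0.060 without the pair) and Pth1r (-0.30 without Ad-Hif1a 3, -0.41 without Ad-Hif2a 3, against up to 0.43 without Ad-Hif2a 1, and -0.15 without the pair). The cause was not tested.

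Genes called with Ad-Hif1a numbered 1624, and 2470 by DESeq2, 4793 with only the 6 libraries compared, 3991 without the pair, and 445 to 5301 with 1 library left out. With Ad-Hif2a they numbered 2247, and 3452 without the replicate block, 3526 by DESeq2, 4123 without the pair, and 702 to 3285 with 1 library left out. Between the vectors they numbered 0, and 2 without the block, 19 by DESeq2, 2 with no filter on low counts, 9 without the pair, and 0 to 11 with 1 library left out.

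Without the replicate block and by DESeq2, in that order, the called genes of a list with Ad-Hif1a were 4 and 4 for RANK signaling (2 in the report), 3 and 2 for vitamin D responsive genes (1), 10 and 12 for cytokine and prostaglandin inputs (6), and 4 and 4 for inputs to osteoprotegerin (1). With Ad-Hif2a they were 6 and 5 for RANK signaling (3) and 4 and 4 for vitamin D responsive genes (1). DESeq2 alone moved vitamin D activation and partners with Ad-Hif1a from 0 to 1 and PTH receptor signaling with Ad-Hif2a from 4 to 8. Libraries with the same replicate number did not deviate together (9 pairs, r from -0.57 to 0.098), although the study names a paired test for its RNA-seq, so whether the cultures were paired is not settled here. Over 18 pairs with other numbers r ran from -0.57 to 0.61, the highest between Ad-Hif1a 1 and Ad-Hif2a 3. The block changed no call of a member. Without the pair of libraries, risen and fallen genes with Ad-Hif1a and with Ad-Hif2a were 2 and 3, 2 and 3 for partners and sheddases, 0 and 2, 0 and 3 for vitamin D activation and partners, 2 and 4, 2 and 3 for vitamin D responsive genes, 3 and 3, 5 and 4 for PTH receptor signaling, 5 and 2, 6 and 0 for PTH responsive genes, 13 and 1, 14 and 1 for cytokine and prostaglandin inputs, and 1 and 5, 1 and 3 for inputs to osteoprotegerin. The low counts of Tnfsf11 in Ad-C limit the precision of its fold change.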
